A study of Mus musculus with 24 samples.

Results

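Expression of 10 imprinted genes was followed in liver tumours of mice: Igf2, H19, Cdkn1c, Phlda2, Peg3, Zim1, Dlk1, Meg3, Peg10 and Grb10. They were taken by name from a table of 54403 named genes, which writes them in upper case (IGF2, H19, CDKN1C, PHLDA2, PEG3, ZIM1, DLK1, MEG3, PEG10, GRB10), and all 10 were found once. The choice was made with the values of these libraries known. Differences of the 10 genes among vehicle, RMC-6272 and sorafenib are therefore given as a description, without a test.

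All tumours came from FVB/N mice carrying Lap-tTA and Tet-O-MYC, a pair of transgenes in which a liver-active promoter drives a transactivator that switches on human MYC when doxycycline is withdrawn. The mice were treated once tumours were visible by magnetic resonance imaging, received a second dose 7 days after the first, and were killed at set hours after it. Vehicle (Transcutol, Solutol and water, into the peritoneum) was collected at 24 h in 3 libraries. RMC-6272, a bi-steric inhibitor selective for mTOR complex 1, was injected into the peritoneum at 10 mg/kg. It has 1 library from 12 h, and 3 libraries from each of 24, 48 and 72 h. Sorafenib, an oral multikinase inhibitor dosed daily by gavage (30 mg/kg), has 3 libraries from 4 h, 2 from 24 h and 2 from 48 h. With vehicle from 24 h alone, treatment and hour cannot be told apart in comparisons with it at 4, 12, 48 or 72 h. For sorafenib the route also differed from that of vehicle. None of these 20 libraries came from mice given doxycycline as a treatment, by their labels. In 2 further libraries the transgene was switched off with doxycycline at 100 µg/ml in drinking water (24 h), and 2 came from RMC-4627, a second compound of the same class at 10 mg/kg (24 h). The labels do not say whether replicates were separate mice or pieces of tumour, so tests measure the spread between samples, which may be technical.

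Imprinted genes are read from only 1 of the parental copies, set by DNA methylation laid down in the germ line at control regions that often govern a whole cluster. Many members of the class act on fetal growth and are switched down in the liver after birth, and several are known to be expressed again in liver tumours. Within a cluster, genes read from the maternal copy (H19, Cdkn1c, Phlda2, Meg3, Zim1) and from the paternal copy (Igf2, Peg3, Dlk1, Peg10) lie side by side. Grb10 is read from the maternal copy in most tissues. FPKM does not separate the copies, so nothing here measures imprinting itself.

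For orientation, promoters are shown for 4 of the 6 genes that lay outside the vehicle range at 24 h of RMC-6272, those matched by symbol in the promoter table, as the 250 bases before the annotated start (RefSeq, GRCm38.p6). They were searched on both strands for CACGTG (the E-box bound by MYC), TGACGTCA (the cyclic AMP response element) and TATAAA (the TATA box). Capitals mark matches. Phlda2 lies at chr7:143502525-143502774 and Zim1 at chr7:6696433-6696682. Peg3 lies at chr7:6730420-6730669, and these 3 are on the minus strand. Meg3 lies at chr12:109540746-109540995 on the plus strand.
Phlda2: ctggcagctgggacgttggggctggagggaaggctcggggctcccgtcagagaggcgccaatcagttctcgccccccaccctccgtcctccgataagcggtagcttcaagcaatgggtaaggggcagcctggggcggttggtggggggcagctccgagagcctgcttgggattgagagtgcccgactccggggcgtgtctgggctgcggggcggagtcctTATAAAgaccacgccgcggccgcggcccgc
Zim1: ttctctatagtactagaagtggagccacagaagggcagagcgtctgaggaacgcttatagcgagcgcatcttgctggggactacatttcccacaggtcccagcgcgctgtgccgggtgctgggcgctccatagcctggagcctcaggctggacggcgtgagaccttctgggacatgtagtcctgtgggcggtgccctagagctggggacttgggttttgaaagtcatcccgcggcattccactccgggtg
Peg3: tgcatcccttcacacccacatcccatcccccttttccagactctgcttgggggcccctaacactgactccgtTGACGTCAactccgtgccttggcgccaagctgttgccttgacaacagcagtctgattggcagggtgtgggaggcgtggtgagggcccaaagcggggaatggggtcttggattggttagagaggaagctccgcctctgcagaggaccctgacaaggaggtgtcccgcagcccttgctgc
Meg3: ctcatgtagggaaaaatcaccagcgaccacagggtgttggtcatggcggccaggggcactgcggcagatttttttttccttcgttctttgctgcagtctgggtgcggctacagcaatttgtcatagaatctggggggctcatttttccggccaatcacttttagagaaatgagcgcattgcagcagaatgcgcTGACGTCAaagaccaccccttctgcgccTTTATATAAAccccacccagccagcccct
The promoters shown for Peg3 and Meg3 each held TGACGTCA, which 1.55% of 32851 mouse promoters hold. Phlda2 held TATAAA, and Meg3 held it on both strands, overlapping, against 12.4% of promoters. The promoter shown for Zim1 held none of the 3. Another promoter listed for Meg3, not shown, also held none, with 50% G and C and 0 CpG. CACGTG, held by 6.02% of promoters, was in none of the 12 promoters listed for the 7 genes found in the table. The Phlda2 window was 68.8% G and C with 21 CpG, against medians of 52.4% and 6 over all promoters. Zim1 had 60% and 14 CpG, Peg3 60.4% and 8, and Meg3 52.4% and 10. A match describes letters only, and a missing one says nothing of the factor.

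Levels were compared as FPKM, read fragments scaled to transcript length and sequencing depth, which allows genes to be set beside each other. H19, a noncoding RNA, was by far the most abundant of the 10, at 2667 to 9497 FPKM over the 20 libraries. Dlk1, which encodes a membrane protein of progenitor cells, lay at 57.5 to 129 and Cdkn1c at 20.9 to 165. Igf2 (2.24 to 51.8), Phlda2 (3.73 to 126), Meg3 (1.26 to 47.8), Peg3 (3.88 to 33.4), Grb10 (1.95 to 22.0) and Peg10 (0.223 to 18.3) were intermediate. Zim1 was the lowest, at 0.0505 to 2.52 FPKM, and reached 1 FPKM in 3 libraries. It passed the filter on low values only through the group in which it was high. Dlk1 had the narrowest spread, 2.25-fold from lowest to highest library, and Peg10 the widest, 81.9-fold. All 10 passed the filter.

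A pair of RMC-6272 libraries had the highest red cell and neutrophil markers of the 20, and their part in the values below was not tested. In the single library at 12 h, red cell markers summed to 1967 FPKM, neutrophil markers to 66.8, macrophage markers to 1061 and hepatocyte markers to 22101, against at most 313, 2.33, 400 and 6207 in vehicle. Its hepatocyte markers lay within the range of the other RMC-6272 libraries, 6027 FPKM (48 h, replicate 2) to 27466 (24 h, replicate 2). Replicate 3 at 72 h had 17.6 M reads, the fewest of the 20, with red cell markers at 30887 FPKM and neutrophil markers at 2664. Replicate 2 at 72 h had red cell markers at 1195 FPKM, the next highest after this pair.

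**Figure D1:**
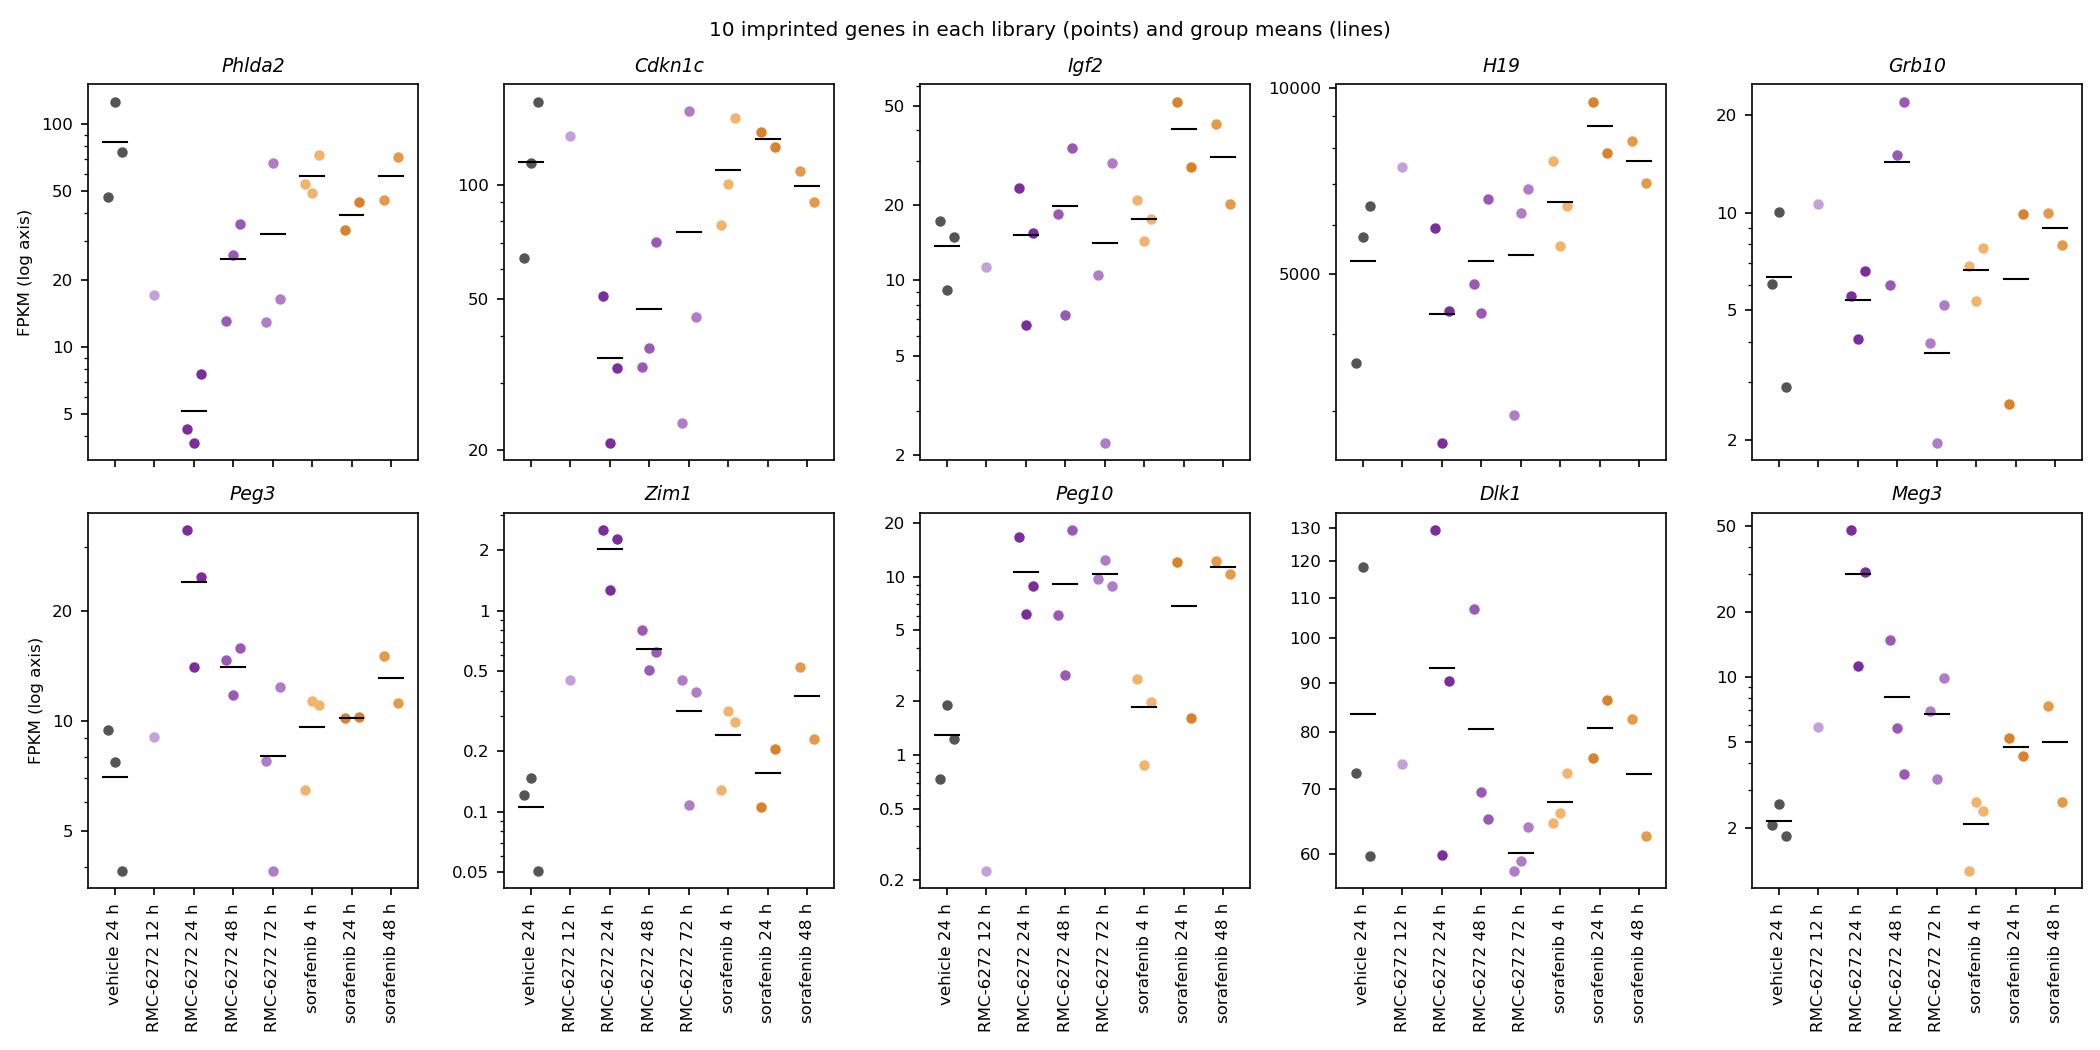
FPKM on a log axis for each of the 10 genes, with 1 point per library and a line at the group mean, by treatment and hour after the second dose. Phlda2 was at 3.73 to 7.58 FPKM in the RMC-6272 libraries at 24 h, below all vehicle libraries (47.4 to 126), while Meg3 was at 11.2 to 47.8, above vehicle (1.83 to 2.57).

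At 24 h after RMC-6272, 6 of the 10 genes lay outside the range of vehicle. Zim1, Meg3, Peg10 and Peg3 were higher, and Phlda2 and Cdkn1c were lower. Igf2, H19, Dlk1 and Grb10 overlapped with vehicle. Across all 13594 genes tested, 23.3% were higher and 26.8% lower without overlap in the same libraries. The 10 were chosen with these values known, so nothing is read from their share. Their median log2 difference was 0.08, against -0.01 over all genes. At 48 h, 4 of the 10 were higher and 1 lower without overlap, where 13.9% and 17.6% of all genes were, and at 72 h 2 were higher and none lower, where 13.3% and 19.2% were. In sorafenib at 24 h, 4 were higher and 1 lower, where 13.5% and 17% of all genes were. At 48 h of sorafenib 6 were higher (Igf2, H19, Peg3, Zim1, Meg3 and Peg10) and none lower, where 9.43% and 9.04% were. At 4 h all 10 overlapped with vehicle, where 3.98% of all genes were higher and 4.76% lower.

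Phlda2 encodes a small pleckstrin-homology protein that restrains placental growth. Its values were 47.4, 126 and 75.2 FPKM in vehicle and 4.32, 3.73 and 7.58 at 24 h of RMC-6272, a 15.9-fold lower mean. On the log2(FPKM + 1) scale used for every difference here, it was -3.70 ± 0.52 (SE). The single library at 12 h had 17.1 FPKM, below every vehicle library. At 48 h the 3 libraries had 13.2, 25.9 and 35.8 FPKM, still all below vehicle (log2 difference -1.69 ± 0.52). By 72 h the values were 13, 67.0 and 16.6, and replicate 2 lay within the vehicle range. The difference at 72 h was -1.60 ± 0.52. With 1 of 6 libraries left out it ran from -2.31, without that library, to -1.17. Sorafenib had 53.9, 49.4 and 73.0 FPKM at 4 h, within the vehicle range, 33.5 and 44.6 at 24 h, both below it, and 45.9 and 71.5 at 48 h. Its 24 h difference from vehicle was -0.97 ± 0.58.

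Cdkn1c, which encodes the cyclin-dependent kinase inhibitor p57 and lies in the same cluster as Phlda2, was also lower at 24 h. Vehicle libraries had 64.1, 114 and 165 FPKM, and RMC-6272 at 24 h had 51.0, 20.9 and 33.0, a 3.27-fold lower mean (log2 difference -1.67 ± 0.55). Unlike Phlda2 it was not low in the library at 12 h, which had 134 FPKM. At 48 h the values were 33.2, 37.2 and 70.4 and at 72 h 23.5, 156 and 44.8, both overlapping with vehicle. The 72 h replicate that was high in Phlda2 was the one high in Cdkn1c, and without it the difference went from -0.94 to -1.68. Over all 6 ways of leaving out 1 library the difference ran from -1.68 to -0.34. In sorafenib Cdkn1c was at 78.3 to 150 FPKM at 4 h, 126 to 137 at 24 h and 90.2 to 109 at 48 h, all within the vehicle range. Deviations from the group means of Phlda2 and Cdkn1c correlated at r = 0.76 over the 20 libraries. This is a description, since the genes of a library share its depth and tissue piece.

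Neighbours of this pair in the Kcnq1 cluster, from a list of other imprinted genes, gave 1 call in each direction among 5 tested, and 3 did not pass. At 24 h of RMC-6272 against vehicle 14.8% of all genes were called higher and 20.3% lower, so nothing is read from this count. Nap1l4, which encodes a histone chaperone, was lower at 24 h of RMC-6272 (31.6 ± 0.82 against 44.5 ± 5.07 FPKM, SD, n = 3 each; log2 difference -0.48 ± 0.11, limma adjusted p = 0.00462). Osbpl5, which encodes an oxysterol-binding protein, was higher (1.35 ± 0.35 against 0.347 ± 0.15 FPKM; 0.80 ± 0.21, adjusted p = 0.0103). Among the 20 libraries Osbpl5 reached 1 FPKM in RMC-6272 libraries alone, so it passed the filter on low values only through groups in which it was high. Its adjusted p is therefore not read as support. The Nap1l4 call was lost in a fit of all 24 libraries (adjusted p = 0.21), where the difference was the same (-0.48). Here and below, that fit takes its spread in part from the doxycycline and RMC-4627 columns, which were made in another way. A call lost in it therefore cannot be laid to the libraries compared.

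Igf2 and H19 share 1 control region and enhancers. Igf2, the fetal insulin-like growth factor, had 9.13 to 17.2 FPKM in vehicle and 6.60 to 23.4 at 24 h of RMC-6272 (log2 difference 0.02 ± 0.69). It lay at 7.30 to 34.0 FPKM at 48 h and 2.24 to 29.5 at 72 h, with both groups on either side of vehicle. In sorafenib Igf2 was above all vehicle libraries at 24 h (28.5 and 51.8 FPKM; 1.46 ± 0.77) and at 48 h (20.2 and 42.0), while at 4 h it overlapped (14.3 to 20.9).

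H19 was likewise above vehicle in sorafenib at 24 and 48 h, and overlapped with it in sorafenib at 4 h (5546 to 7626 FPKM). Vehicle had 3587, 5728 and 6433 FPKM in ascending order, and RMC-6272 had 2667 to 5924 at 24 h, 4320 to 6620 at 48 h and 2964 to 6860 at 72 h, all overlapping. Sorafenib had 7852 and 9497 FPKM at 24 h and 7023 and 8210 at 48 h, all above vehicle, as was the 12 h library of RMC-6272 (7455). The difference of H19 between sorafenib at 24 h and vehicle was 0.76 ± 0.39, given without a test. Deviations of Igf2 and H19 from the group means correlated less (r = 0.37) than those of H19 and Cdkn1c (r = 0.73), with no test of that difference.

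Receptors, binding proteins and other genes of the insulin-like growth factor pathway were counted from a list of 19, of which 16 were tested. Against vehicle at 24 h of RMC-6272, 3 rose and 1 fell, where 14.8% and 20.3% of all genes tested did. Igfbp1, a binding protein induced by low insulin signalling, rose from 42.5 ± 13.8 to 434 ± 220 FPKM (3.26 ± 1.08, adjusted p = 0.0293). Igfbp5 fell from 17.1 ± 5.88 to 2.47 ± 0.17 FPKM (-2.34 ± 0.33, adjusted p = 0.000728). Igfbp7 rose (1.40 ± 0.41, adjusted p = 0.0168), and Insr, the insulin receptor, rose by a small amount (0.40 ± 0.12, adjusted p = 0.0234). The call for Igfbp1 was lost with no filter (0.063) and without any 1 of 5 libraries: vehicle replicate 1 (0.0606), 2 (0.0516) or 3 (0.0884), or RMC-6272 replicate 1 (0.0942) or 3 (0.0531). The calls for Igfbp7 were lost without vehicle replicate 2 (0.0557) or RMC-6272 replicate 2 (0.0537), and for Insr without vehicle replicate 2 (0.104), RMC-6272 replicate 1 (0.0545) or replicate 2 (0.0665), and in a fit of all 24 libraries (0.185). Igfbp5 was still lower at 48 h (-2.42 ± 0.33, adjusted p = 0.0195) and 72 h (-1.61 ± 0.33, adjusted p = 0.00731). The call at 48 h was lost without vehicle replicate 1 (0.107) or 3 (0.114). At 72 h, 1 of the 16 rose and 4 fell, against 10.7% and 15.8% of all genes. Igf2r, the imprinted receptor that clears Igf2, was among those that fell (19.1 ± 4.13 against 33.9 ± 3.88 FPKM; -0.81 ± 0.22, adjusted p = 0.0181). That call was lost when RMC-6272 replicate 3 (0.0608) or a vehicle library (replicate 1, 0.0554, or 2, 0.0507) was left out, and in a fit of all 24 libraries (0.0842). None of the 16 passed for sorafenib at 24 h, where 0% of all genes passed. There 3 of the 16 had an unadjusted p under 0.05, 18.8% against 3.82% of all genes. The list was chosen with earlier results of these data known, so nothing is read from its share.

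Grb10, an adaptor that binds the insulin and insulin-like growth factor receptors and is a known mTOR complex 1 substrate, overlapped with vehicle at 24, 48 and 72 h of RMC-6272 and was just above it in the 12 h library (10.6 FPKM). Vehicle had 2.90 to 10.0 FPKM, and RMC-6272 had 4.08 to 6.59 at 24 h (log2 difference -0.09 ± 0.48). It was at 5.98, 15.0 and 22.0 FPKM at 48 h and 1.95 to 5.19 at 72 h, 2 sets that did not overlap with each other. In sorafenib Grb10 had 2.57 and 9.91 FPKM at 24 h, so its difference from vehicle changed sign with the library left out (-0.91 to 0.70). Its neighbour Ddc, which encodes aromatic amino acid decarboxylase, was lower at 24 h of RMC-6272 (6.49 ± 0.62 against 15.4 ± 0.91 FPKM; -1.13 ± 0.27, adjusted p = 0.00611) and at 72 h (-1.33 ± 0.27, adjusted p = 0.00725).

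Peg3 and Zim1 are neighbouring zinc finger genes of opposite parental expression. Peg3 had 9.47, 7.73 and 3.88 FPKM in vehicle and 33.4, 14.1 and 24.9 at 24 h of RMC-6272, a 3.43-fold higher mean (1.64 ± 0.37). At 48 h it had 14.7, 11.8 and 15.8 FPKM, again above vehicle (0.97 ± 0.37). At 72 h the values of 7.76, 3.89 and 12.4 overlapped with vehicle, and the 12 h library (9.07) lay within its range. Sorafenib libraries had 6.50 to 11.4 FPKM at 4 h, 10.2 and 10.3 at 24 h and 11.2 and 15.1 at 48 h.

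Zim1 followed the same order at a far lower level. Vehicle had 0.120, 0.147 and 0.0505 FPKM, which correspond to 37, 37 and 15 reads, and RMC-6272 at 24 h had 2.52, 1.26 and 2.27, or 685, 337 and 684 reads. The mean was 19-fold higher (1.42 ± 0.18, or 3.34 with a pseudocount of 0.1, since adding 1 compresses the change of a low gene). Values were 0.798, 0.504 and 0.624 FPKM at 48 h and 0.451, 0.108 and 0.393 at 72 h, so that 24, 48 and 72 h lay in falling order without overlap. The 12 h library had 0.450 FPKM, above vehicle. Sorafenib had 0.106 and 0.204 FPKM at 24 h and 0.229 and 0.525 at 48 h. Deviations of Peg3 and Zim1 from the group means correlated at r = 0.80 over the 20 libraries.

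Peg10, a gene derived from a retrotransposon that is needed for the placenta, was above vehicle at 24, 48 and 72 h of RMC-6272. Vehicle had 0.738, 1.91 and 1.23 FPKM. At 24 h of RMC-6272 it had 16.7, 6.20 and 8.92, at 48 h 6.11, 2.81 and 18.3, and at 72 h 9.77, 12.4 and 8.83. Each of these 9 libraries was above vehicle, with means 8.22-, 7.02- and 7.99-fold higher (2.27, 1.85 and 2.32, each ± 0.58). The 12 h library, at 0.223 FPKM, was below vehicle. Peg10 was also above vehicle in both sorafenib libraries at 48 h (12.2 and 10.4 FPKM, 8.73-fold). At 24 h of sorafenib 1 library had 12.2 FPKM and the other 1.61, and at 4 h the range was 0.878 to 2.68. The difference between RMC-6272 and sorafenib at 24 h was 0.88 ± 0.65, and it moved from -0.28 to 2.05 with the sorafenib library left out.

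Sgce, which encodes epsilon-sarcoglycan, is read from the paternal copy beside Peg10. It too reached 1 FPKM among the 20 libraries in RMC-6272 libraries alone, and passed the filter only through them. Its adjusted p values are therefore not read as support. Sgce was at 0.146 to 0.197 FPKM in vehicle and 0.750 to 1.81 at 24 h of RMC-6272 (0.82 ± 0.21, adjusted p = 0.00923). It was also higher at 72 h (0.714 to 1.93 FPKM; 0.90 ± 0.21, adjusted p = 0.0116), and at 48 h it had 0.486 to 1.06 FPKM without passing (adjusted p = 0.127). In sorafenib Sgce was above vehicle at 48 h too (0.786 and 0.599 FPKM), and overlapped with it at 24 h (0.354 and 0.132) and at 4 h. Sgce was the gene most like Peg10 over the 20 libraries (r = 0.74 on the log2 scale), and deviations from the group means correlated at r = 0.47.

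**Figure D2:**
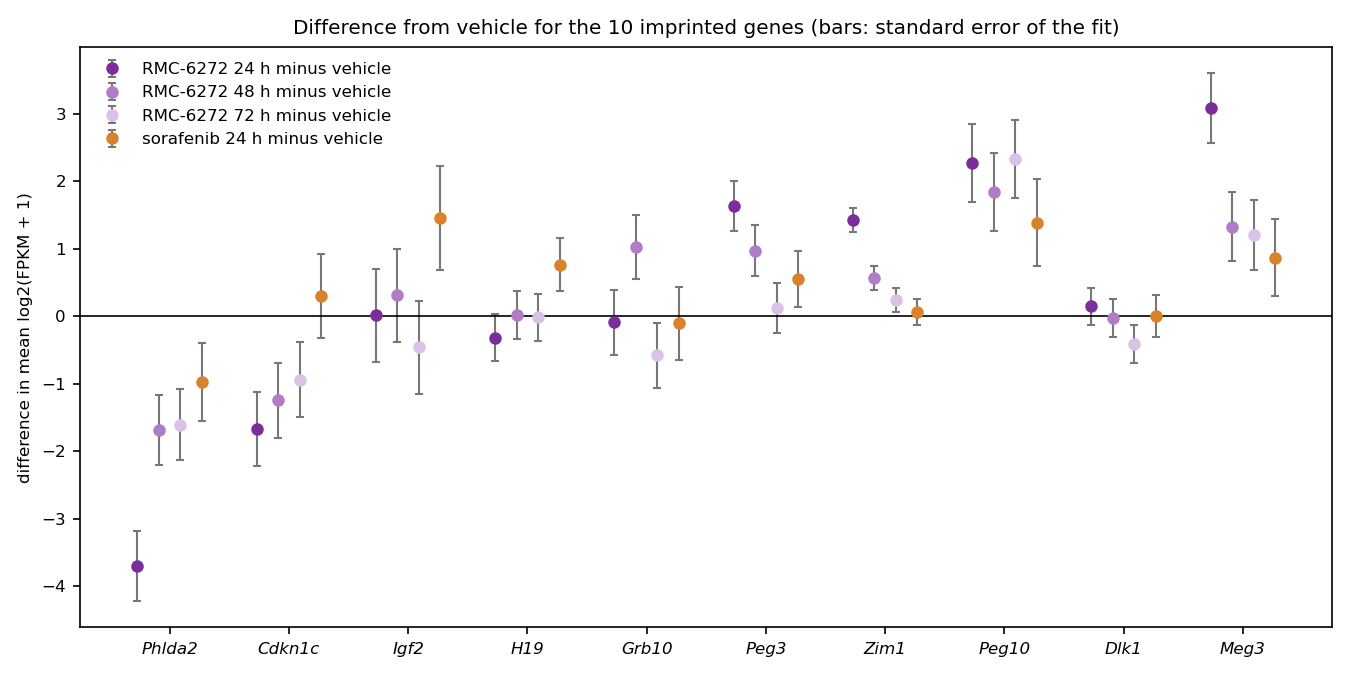
Difference in mean log2(FPKM + 1) from the 3 vehicle libraries for each of the 10 genes, with the standard error of the fit. The RMC-6272 points at 24 h reach -3.70 for Phlda2 and 3.08 for Meg3, and Peg10 stays between 1.85 and 2.32 over 24, 48 and 72 h.

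Meg3 is a long noncoding RNA read from the maternal copy of the Dlk1-Dio3 cluster, and Rian and Mirg are noncoding RNAs that follow it on the same strand and host small RNAs. Meg3 had 2.06, 2.57 and 1.83 FPKM in vehicle and 47.8, 11.2 and 30.6 at 24 h of RMC-6272, a 13.9-fold higher mean (3.08 ± 0.52). All 3 libraries were above vehicle, although replicate 2 was well below replicate 1. Values were 14.9, 5.80 and 3.55 FPKM at 48 h (1.33 ± 0.52) and 6.97, 3.35 and 9.89 at 72 h (1.20 ± 0.52), all above vehicle. The 12 h library had 5.83. Sorafenib overlapped with vehicle at 4 h (1.26 to 2.64 FPKM) and was above it at 24 h (5.19 and 4.31) and 48 h (7.30 and 2.64). Dlk1, read from the paternal copy of this cluster, had 59.6 to 118 FPKM in vehicle and 59.9 to 129 at 24 h of RMC-6272 (0.15 ± 0.28). It was at 65.2 to 107 FPKM at 48 h, 57.5 to 63.9 at 72 h (-0.41 ± 0.28) and 62.5 to 86.5 in the sorafenib libraries.

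Rian rose at 24 h of RMC-6272, from 3.38, 4.06 and 3.72 FPKM in vehicle to 18.6, 6.83 and 14.8 (1.51 ± 0.33, adjusted p = 0.00349). Mirg rose from 0.581, 0.948 and 0.635 FPKM to 3.32, 1.13 and 2.55 (0.90 ± 0.29, adjusted p = 0.0247). The Mirg call was lost without vehicle replicate 1 (0.0658) or 3 (0.0697) and without RMC-6272 replicate 1 (0.108) or 3 (0.0711). At 72 h Rian (0.61 ± 0.33, adjusted p = 0.163) and Mirg (0.72 ± 0.29, adjusted p = 0.0737) did not pass. In all 3 RNAs replicate 1 was the highest and replicate 2 the lowest of the RMC-6272 libraries at 24 h. Replicate 2 was also the lowest of them for Igf2, H19, Cdkn1c, Phlda2, Peg3, Zim1, Dlk1, Peg10 and Grb10. Replicate 1 was the highest for these genes too, except for Phlda2 and Grb10. The order is therefore not particular to this cluster. Hepatocyte markers summed to 27466 FPKM in replicate 2, against 14726 in replicate 1 and 9519 in replicate 3. Their part in the order was not tested. Deviations from the group means correlated at r = 0.91 for Meg3 and Rian, 0.72 for Meg3 and Mirg, 0.88 for Rian and Mirg and 0.77 for Dlk1 and Meg3. These values are a description, since the genes of a library share its depth and tissue piece.

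**Figure D3:**
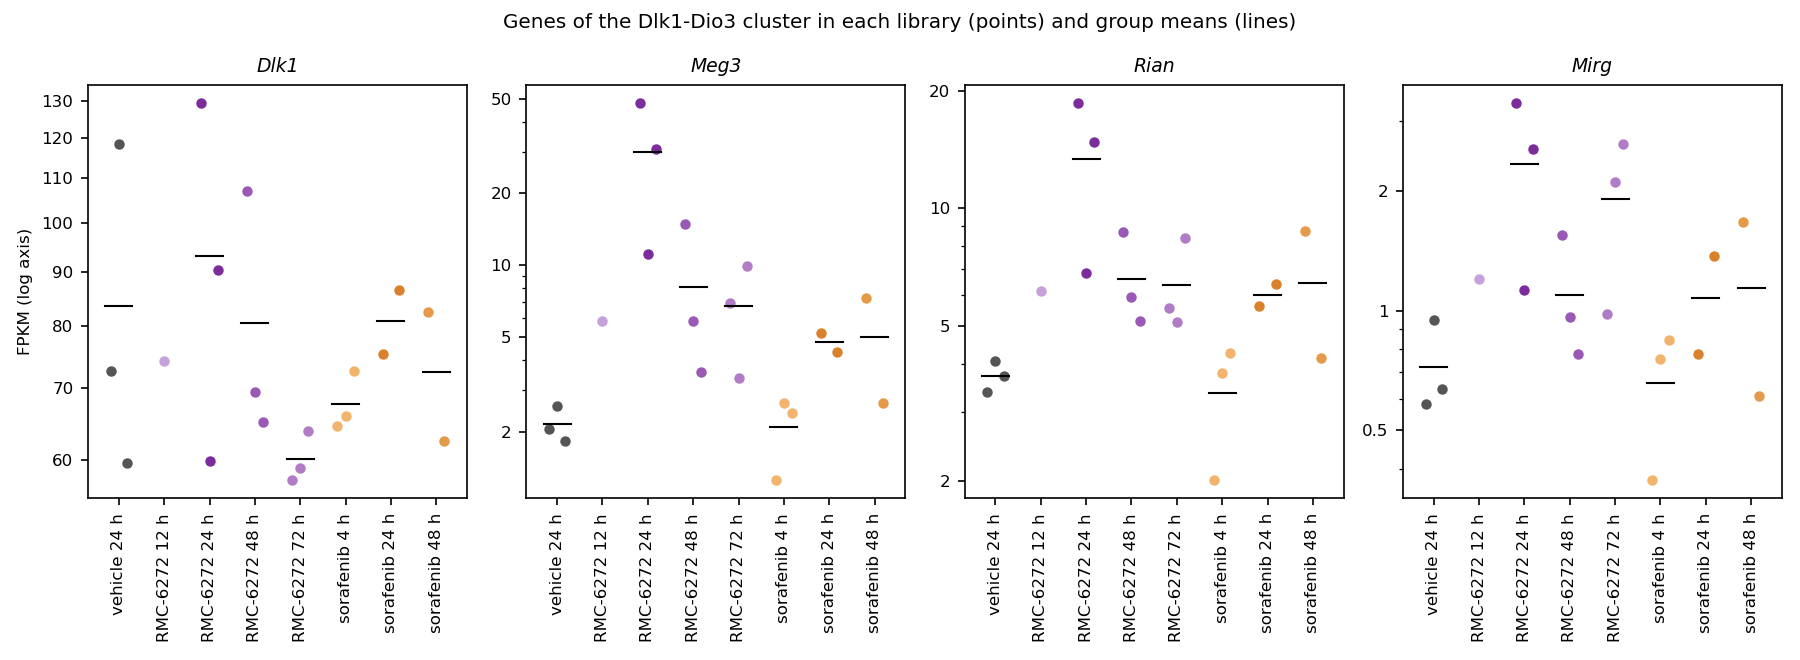
FPKM on a log axis of 4 genes of the Dlk1-Dio3 cluster, with 1 point per library and a line at the group mean. Meg3 (11.2 to 47.8), Rian (6.83 to 18.6) and Mirg (1.13 to 3.32) were above all vehicle libraries at 24 h of RMC-6272, and Dlk1 was not.

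In whole tumour tissue, fewer cells of a type and less RNA per cell cannot be told apart, and summed markers of several cell types differed between these libraries. None of the 8 hepatocyte markers was at 0 in all libraries of a group, and their summed level was 3206 to 6207 FPKM in vehicle and 9519 to 27466 at 24 h of RMC-6272, where 3 of 8 were higher. Markers of stellate cells and fibroblasts, cells known to express Meg3 and Peg3, summed to 45.0 to 109 FPKM in vehicle and 85.2 to 150 at 24 h of RMC-6272, with 2 of 8 higher and none at 0. Macrophage markers summed to 196 to 400 and 550 to 682 FPKM, with 1 of 7 higher. Neutrophil markers summed to 0.705 to 2.33 and 7.65 to 35.6 FPKM, with 0 of 4 tested higher and Ly6g at 0 in both groups. Red cell precursor, endothelial, T cell, B cell and bile duct markers gave 1 call among those tested, a bile duct marker that was lower. Of all genes tested, 14.8% were called higher and 20.3% lower here, so nothing is read from these marker counts. The part of these cell types in the differences of the 10 genes was not tested. At 72 h the 2 libraries other than replicate 3 gave 9 calls among the other imprinted genes described next, against 11 with it. Of all genes, 17.6% passed without it, against 26.6% with it.

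Each library carries a description code whose meaning the labels do not give. No code stem of a vehicle library is shared with an RMC-6272 or sorafenib library, so code and treatment cannot be told apart in any comparison with vehicle. The doxycycline and RMC-4627 libraries share no stem either, so the same holds between them. Within 1 stem, RMC-6272 replicates 2 and 3 at 24 h, replicate 3 at 48 h and replicate 1 at 72 h can be set side by side. Phlda2 was at 3.73 and 7.58, then 35.8, then 13 FPKM in these libraries. Meg3 was at 11.2 and 30.6, then 3.55, then 6.97 FPKM, and Zim1 at 1.26 and 2.27, then 0.624, then 0.451. A second stem holds both sorafenib libraries of 24 h, replicate 1 of 48 h and RMC-6272 replicate 3 of 72 h. In it, Phlda2 was at 33.5, 44.6 and 45.9 FPKM in sorafenib and 16.6 in RMC-6272, and Meg3 at 5.19, 4.31 and 7.30 and at 9.89.

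Set directly against sorafenib at 24 h, RMC-6272 had higher Meg3 (2.21 ± 0.58), Zim1 (1.36 ± 0.20) and Peg3 (1.08 ± 0.42), each without overlap. Phlda2 (-2.73 ± 0.58), Cdkn1c (-1.97 ± 0.62), Igf2 (-1.44 ± 0.77) and H19 (-1.08 ± 0.39) were lower without overlap. With groups of 3 and 2, 29% of all genes were higher and 32.7% lower in this sense. At 48 h, H19, Cdkn1c and Phlda2 were lower than in sorafenib without overlap, and none was higher, where 22.3% and 16.7% of all genes were. The 24 h RMC-6272 libraries are the same in this comparison and in the one with vehicle.

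Other imprinted genes were tested from a list of 75, of which 74 were found and 38 passed the filter. The list is what remained once the 10 had been taken out. At 24 h of RMC-6272, 12 of 38 rose and 5 fell, against 14.8% and 20.3% of all genes, with a median log2 difference of 0.33 against -0.01. Among the 20 libraries, 5 of the 38 reached 1 FPKM in RMC-6272 libraries alone. Of the 12 that rose, 4 (Airn, Sgce, Osbpl5 and Peg13) were among these 5, so nothing is read from the count or the median. The adjusted p values of these 4 are not read as support either. Qpct, which encodes glutaminyl cyclase, rose from 2.01 ± 0.78 to 10.4 ± 0.59 FPKM (1.96 ± 0.38, adjusted p = 0.00211). Blcap rose from 6.30 ± 0.30 to 11.4 ± 2.23 FPKM (0.75 ± 0.14, adjusted p = 0.00163). Sfmbt2, a Polycomb-related gene, fell from 24.3 ± 5.57 to 9.09 ± 3.39 FPKM (-1.36 ± 0.25, adjusted p = 0.00175). Airn, the noncoding RNA that silences Igf2r on the paternal copy, rose from 0.517 ± 0.11 to 1.64 ± 0.60 FPKM (0.78 ± 0.18, adjusted p = 0.00469). Airn overlaps Igf2r on the other strand, and the sources used here do not say that counting used strand, so its reads cannot be told apart from unspliced Igf2r. This limit also holds for other pairs that overlap in the list, such as Copg2 and Mest or Commd1 and Zrsr1. Leaving out any 1 of the 6 libraries gave 12 to 14 calls in place of 17, where 24.5 to 30.9% of all genes passed in place of 35.2%.

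**Figure D4:**
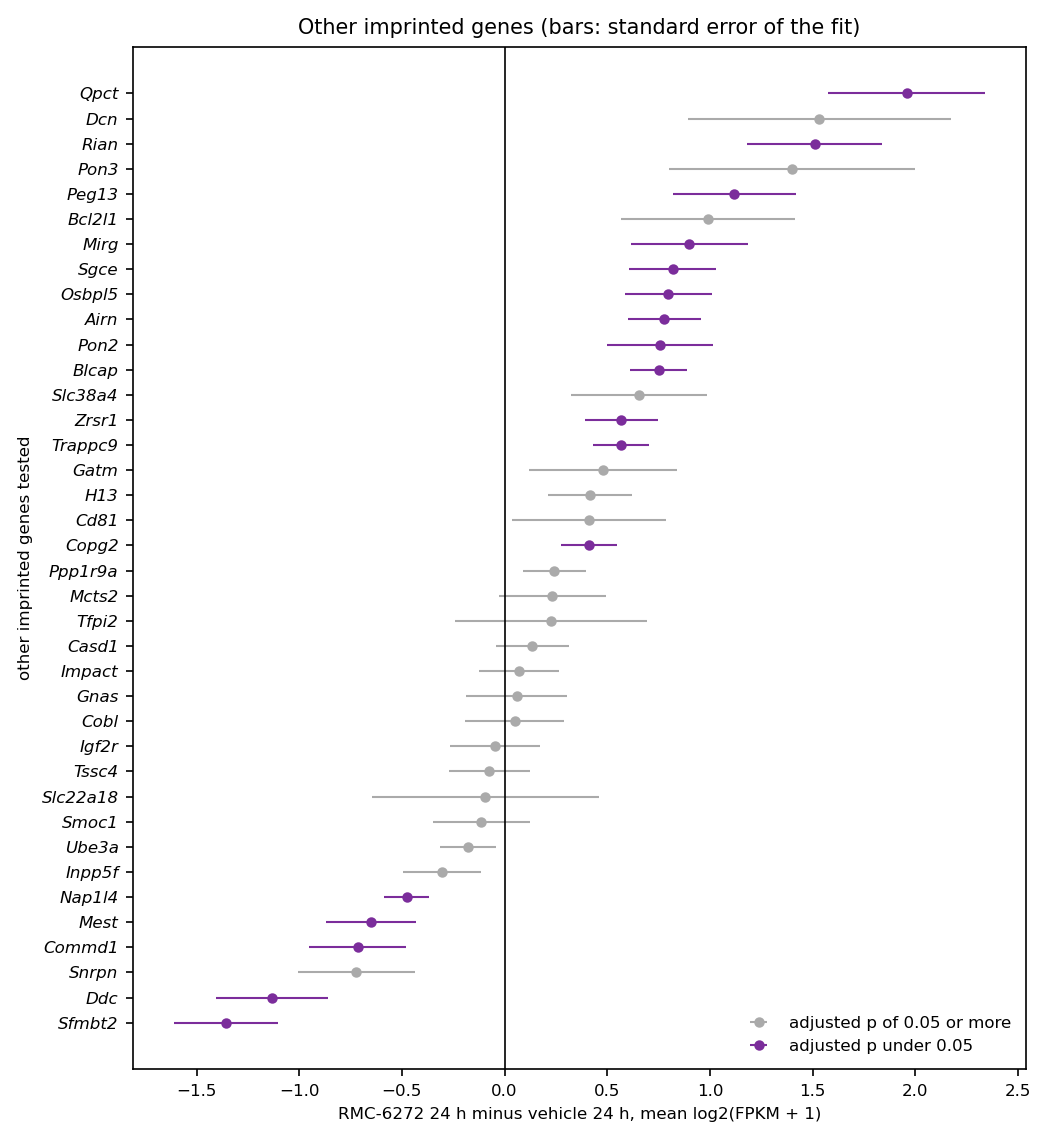
Difference between RMC-6272 at 24 h and vehicle in mean log2(FPKM + 1) for the 38 other imprinted genes tested, with the standard error of the fit. Purple points passed an adjusted p of 0.05, 12 to the right of 0 and 5 to the left, from -1.36 for Sfmbt2 to 1.96 for Qpct.

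At 48 h none of the 38 passed by limma, where 0.11% of all genes did, and 9 of the 38 had an unadjusted p under 0.05, 23.7% against 21.9% of all genes. At 72 h, 5 rose and 6 fell, against 10.7% and 15.8% of all genes. Sfmbt2 (-1.30 ± 0.25, adjusted p = 0.00622), Blcap (0.68 ± 0.14, adjusted p = 0.00706), Ddc, Sgce and Igf2r were among them. Of the 5 that rose, 1 (Sgce) had reached 1 FPKM in RMC-6272 libraries alone. Impact, which encodes a regulator of the stress kinase Gcn2, fell from 12.6 ± 0.44 to 7.34 ± 1.66 FPKM (-0.73 ± 0.20, adjusted p = 0.0179). Inpp5f, an inositol phosphatase gene, fell from 7.20 ± 0.62 to 4.10 ± 1.64 FPKM (-0.74 ± 0.19, adjusted p = 0.0156), a call lost without vehicle replicate 1 (0.0533) and in a fit of all 24 libraries (0.0796). Without vehicle replicate 1 or 2 the number of calls at 72 h was 6, where 13.3% and 18.3% of all genes passed in place of 26.6%. For sorafenib at 24 h none passed by limma and 1 had an unadjusted p under 0.05 (2.63% against 3.82%). Between RMC-6272 and sorafenib at 24 h, 8 were higher and 3 lower, against 7.47% and 11.3% of all genes. Of these 8, 4 were again among the 5 that reached 1 FPKM in RMC-6272 libraries alone. Without either of the 2 sorafenib libraries there were 0 calls, among these and among all genes tested, in fits that take the lone sample to vary like the other groups. Without an RMC-6272 library there were 6 or 7, where 9.64 to 15.8% of all genes passed in place of 18.7%. At 48 h none passed against sorafenib, where 0.00736% of all genes did, and 7 had an unadjusted p under 0.05 (18.4% against 12.7%).

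Genes that set or keep imprints (DNA methyltransferases, their cofactors, Polycomb and zinc finger cofactors) were counted from a list of 18, of which 13 were tested. At 24 h of RMC-6272 none rose and 7 fell, against 14.8% and 20.3% of all genes. This list, like the others, was chosen with earlier results of these data known, so nothing is read from its counts. Uhrf1, which brings Dnmt1 to replicating DNA, fell from 43.1 ± 4.85 to 12.0 ± 3.67 FPKM (-1.80 ± 0.22, adjusted p = 0.000639). Dnmt1, the maintenance methyltransferase, fell from 23.0 ± 2.62 to 13.8 ± 3.04 FPKM (-0.71 ± 0.17, adjusted p = 0.00659). Trim28, the corepressor of imprint-keeping zinc finger proteins, fell from 145 ± 21.5 to 86.5 ± 10.6 FPKM (-0.74 ± 0.16, adjusted p = 0.00340). Ctcf, the insulator protein that binds the Igf2-H19 control region, fell from 18.3 ± 1.36 to 10.3 ± 1.17 FPKM (-0.77 ± 0.16, adjusted p = 0.00310). Ezh2, Smchd1 and Eed also fell. In a fit of all 24 libraries the calls for Ctcf (0.101) and Dnmt1 (0.0742) were lost. At 72 h again none rose and 7 fell, against 10.7% and 15.8% of all genes, with Dnmt3a (-1.11 ± 0.21, adjusted p = 0.00605) in place of Ezh2. The calls at 72 h for Dnmt1 (0.102) and Ctcf (0.26) were lost in the fit of all 24 libraries. That for Ctcf was also lost when a vehicle library (replicate 1, 0.0716, or 3, 0.0773) or one of RMC-6272 (replicate 1, 0.0579, or 3, 0.0883) was left out. None passed at 48 h, where 2 had an unadjusted p under 0.05 (15.4% against 21.9% of all genes), or for sorafenib at 24 h, where none did. Methylation was not measured.

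Oncofetal and progenitor genes, another group known to be active in fetal liver, were counted from a list of 14, of which 9 were tested. At 24 h of RMC-6272, 2 rose and none fell, against 14.8% and 20.3% of all genes. Afp, alpha-fetoprotein, rose from 1411 ± 410 to 6874 ± 3016 FPKM (2.23 ± 0.42, adjusted p = 0.00175). Gpc3, a heparan sulfate proteoglycan, rose from 3.60 ± 0.79 to 33.1 ± 13.9 FPKM (2.83 ± 0.63, adjusted p = 0.00394). None passed at 48 or 72 h, where 1 and 3 had an unadjusted p under 0.05 (11.1% and 33.3%, against 21.9% and 42.5% of all genes), or for sorafenib at 24 h (0).

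Genes whose levels over the 20 libraries were most like each of the 10 were named by their correlation on the log2 scale. This is a description that includes differences between treatments. Phlda2 was most like Ccne1 (r = 0.97), Ddx39 (0.97) and Cdca5 (0.97). Meg3 was most like Lmntd2 (0.96), Rian (0.96) and Fndc3b (0.94), and Zim1 was most like Ttll10 (0.95), Dcaf5 (0.94) and Meg3 (0.91). The highest correlations were 0.92 for Cdkn1c (Ivd), 0.89 for Peg3 (Chpf2), 0.86 for Igf2 (Tm9sf3), 0.84 for H19 (Foxo4), 0.80 for Dlk1 (Ptk7) and 0.74 for Grb10 (Samhd1).

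The columns of doxycycline and RMC-4627 were made in another way than the other 20, and are compared only with each other. The fit of all 24 libraries, an alternative, shares its estimate of the spread with them. The 10 genes had not been chosen on this contrast. Of 2944 genes above 10 FPKM in all 20 libraries, 23 are listed under 0.2 FPKM in all 4 of these columns, among them Cct2 and Clta, which every cell uses. Dlk1 is one of those listed near 0, at 0 and 0.143 FPKM with doxycycline and 0.111 and 0.0702 with RMC-4627, and no fold is drawn from it. Zim1 was at 1.69 and 1.60 FPKM with doxycycline and 0.283 and 0.393 with RMC-4627 (log2 difference 0.98 ± 0.20, limma adjusted p = 0.559). Cdkn1c was at 7.23 and 6.52 against 10.4 and 34.2 FPKM (-1.35 ± 0.66, adjusted p = 0.626). These 2 genes did not overlap between the groups, where 19.3% of genes were higher and 23.7% lower in this sense. Peg3 was at 61.2 and 74.1 FPKM with doxycycline and 74.8 and 1.51 with RMC-4627, and the other 6 genes with levels to compare overlapped. Phlda2 was at 1.66 and 1.46 against 1.29 and 5.09 FPKM, and Meg3 at 2.06 and 2.62 against 3.34 and 1.71. H19 had 1390 and 1568 FPKM against 600 and 2043. None of the 9 tested passed, and 1 had an unadjusted p under 0.05. None of the 36 other imprinted genes passed, and 3 had one. Nap1l4 (109 ± 53.3 against 13.1 ± 8.15 FPKM, SD, n = 2 each, limma adjusted p = 0.559) and Pon2 (5.39 ± 1.87 against 20.1 ± 8.53 FPKM, limma adjusted p = 0.559) had the smallest p. Of all 11058 genes tested none passed, and 971 (8.78%) had an unadjusted p under 0.05.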

How the data were processed

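RNA sequencing of 24 tumour samples was used as the authors' deposited FPKM per gene. Per the submitters' processing notes, STAR 2.5, HTSeq 0.6.1 and the build mm9 were used. Of 54532 entries, 27 with a number for a name and 102 repeats of a symbol were left out. In 20 libraries 98.2 to 98.7% of low values (up to 20 reads, tolerance 0.02) were whole reads given gene lengths of a newer annotation, at 17.6 to 41.7 M reads (median 34.9 M). Of the low values with doxycycline or RMC-4627, 2.70 to 3.35% were, so the depth of those 4 is unknown.

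Genes that reached an FPKM of 1 in 2 or more libraries were fitted as log2(FPKM + 1) with limma 3.58.1 (trend) in R 4.3.3, 1 mean per group, two-sided, with Benjamini-Hochberg adjustment over all genes and a threshold of 0.05. The 20 libraries were fitted together (13594 genes) and the other 4 alone (11058 genes). The code was tested on simulated data. The members and lists were chosen with earlier results of these data known. Named genes are all members, up to 6 called genes of a list with the smallest p (the 2 smallest where none passed), neighbours in a member's cluster, and the 3 genes most like a member. Alternatives were another pseudocount, no filter, median-ratio scaling, blocks for replicate number or description code, a fit of all libraries and leaving out each replicate.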

Additional observations from a re-analysis of the deposited data

How the results depend on the processing

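The number of other imprinted genes called at 24 h of RMC-6272 against vehicle was 17, 12 to 17 over all alternatives and 12 to 14 with 1 library left out. Of all genes, 35.2% passed, 15.7 to 35.8% over all alternatives and 24.5 to 30.9% with 1 library left out. At 72 h the number was 11, 6 in a fit of all 24 libraries and 6 to 15 with 1 left out. There 26.6%, 11.6% and 13.3 to 38.7% of all genes passed. Between RMC-6272 and sorafenib at 24 h the number was 11, 7 with no filter, 6 in a fit of all 24 libraries and 6 or 7 without an RMC-6272 library. In these fits 18.7%, 6.43%, 8.54% and 9.64 to 15.8% of all genes passed. For doxycycline against RMC-4627 it was 0, 5 in the fit of all 24 libraries and 0 to 18 with 1 left out, where 18 came without RMC-4627 replicate 1 and 9 without replicate 2. Of all genes, 11.7%, 39.1% and 20.7% passed in these 3 fits. Such a fit has 3 libraries and takes the lone sample to vary like the other group. The cause was not tested. The other 3 comparisons gave 0 throughout.

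The numbers in the titles did not pair the samples: of 30 same-numbered pairs 10 had a correlation of deviations over 0.1, and 2 of 15 libraries correlated best with their own number. With the replicate number as a block, the counts were 17 at 24 h, 10 at 72 h, 9 against sorafenib at 24 h and 0 in the other 4 comparisons. At 24 h, at 72 h and against sorafenib at 24 h, 34.7%, 25.4% and 18.6% of all genes passed.

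Among the members, doxycycline against RMC-4627 gave differences of either sign. With 1 library left out they ran from -0.38 to 0.29 for Meg3, -0.95 to 0.97 for Peg10, -1.40 to 0.26 for Grb10, -0.0403 to 0.72 for Igf2, -0.47 to 1.30 for H19, -1.25 to 0.16 for Phlda2 and -0.15 to 4.77 for Peg3, and Peg10 was -0.0053 with median-ratio scaling. With groups of 2 or 3, the number of samples limits the precision of every value.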
